A study of Mus musculus with 16 samples.

Results

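The S100 proteins are a family of small calcium-binding proteins, and 9 of their genes were chosen for description here: S100a1, S100a4, S100a6, S100a8, S100a9, S100a10, S100a11, S100a13 and S100a14. All probe sets annotated to a single symbol among these genes were taken, which gave 10 probe sets for 8 genes out of 22626 probe sets that are not controls, of which 20380 carry 1 gene symbol. S100a11 was found only on a probe set that also carries 2 other symbols, so no value is given for it. The genes were selected on their differences between metastases and matched primary tumors, which were known from these arrays, so that difference is given as a description.

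An S100 protein usually works as a dimer whose subunits each carry a pair of EF-hand calcium-binding loops, and binding of calcium exposes a surface that docks onto a partner protein. Inside cells the partners include annexins and non-muscle myosin, and some family members are also released and act on receptors such as Ager (also called RAGE) and Tlr4. In lung tumors the family is followed as a readout of cell type, since S100a14 is expressed in epithelia, S100a4 and S100a6 are abundant in fibroblasts and in cells with mesenchymal features, and S100a8 and S100a9 together form calprotectin, an abundant protein of the neutrophil cytoplasm.

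Gene expression was measured in 16 tumors with 1 Affymetrix Mouse 430A 2.0 array each. All came from mice of the genotype p53R172HΔg/+ K-rasLA1/+, in which a latent K-ras allele is activated somatically and 1 p53 allele carries a point mutation. The groups were 7 primary lung adenocarcinomas, 1 from each of mice 1 to 7, and 9 metastases, which came from mice 1 to 4. Mouse 1 had metastases in the body wall (subcutaneous), the liver and the inguinal region, mouse 2 in the liver, mouse 3 in a mediastinal lymph node, the subcutis and the heart, and mouse 4 in a mediastinal lymph node and the parietal pleura. Mouse 6 was labelled female and the others male, and ages were not given in the sources used here. The 9 metastases therefore represent 4 animals and are set against 4 matched primary tumors, and any p-value across them counts tumors of 1 animal as separate. The tumors were dissected pieces of tissue rather than sorted cells, so a lower value cannot tell apart fewer cells of a type from less RNA per cell. Values are model-based intensities in arbitrary units, whose median per array lay between 75 and 85.5, and levels of different probe sets cannot be set against each other.

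The members lie together on mouse chromosome 3, in the order S100a1, S100a13, S100a14, S100a4, S100a6, S100a8, S100a9, S100a11 and S100a10. No other coding gene separated S100a8 from S100a9, while 1 lay between S100a4 and S100a6 and 56 lay between S100a9 and S100a11. The 100 bases before the annotated start are shown for the mesenchymal pair and the neutrophil pair, because each pair consists of near neighbours whose levels are compared below. The sequences are those of RefSeq on GRCm38.p6, each written 5′ to 3′ on the strand of the gene, and TATAAA is in capitals.
S100a4, chr3:90603670-90603769, plus strand: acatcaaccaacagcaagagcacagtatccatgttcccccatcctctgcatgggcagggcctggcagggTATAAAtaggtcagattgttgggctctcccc
S100a6, chr3:90612794-90612893, plus strand: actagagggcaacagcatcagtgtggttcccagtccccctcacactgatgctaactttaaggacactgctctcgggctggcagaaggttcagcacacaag
S100a8, chr3:90668971-90669070, plus strand: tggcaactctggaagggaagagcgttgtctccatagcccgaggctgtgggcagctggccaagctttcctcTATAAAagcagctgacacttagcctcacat
S100a9, chr3:90695722-90695821, minus strand: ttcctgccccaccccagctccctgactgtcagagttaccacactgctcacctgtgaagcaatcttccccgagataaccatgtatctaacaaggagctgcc
TATAAA was searched on both strands. It stood on the strand of the gene in the windows of S100a4 and S100a8, starting 31 and 30 bases before the start, and on the opposite strand in no member. Of 32851 windows of the same length, 3.8% held it on the strand of the gene and 5.56% on either strand. The table of promoters held 7 of the 9 members, without S100a10 and S100a14. The promoter windows of S100a1 and S100a13, which face each other head to head, shared 204 of 300 bases.

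S100a14, the epithelial member, was lower in every metastasis than in the primary tumor of the same mouse. The primary tumors of mice 1 to 4 had intensities of 675, 520.3, 142 and 845. In mouse 1, S100a14 was 87.4 in the body wall metastasis, 74.2 in the liver and 116 in the inguinal metastasis. The liver metastasis of mouse 2 had 58.5. Mouse 3 had 56.5 in the lymph node, 66.8 in the subcutaneous tumor and 27.3 in the heart, the lowest value of all 16 tumors. In mouse 4 the lymph node metastasis had 161 and the pleural metastasis 236. The primary tumors without a profiled metastasis had 391.5 (mouse 5), 762.5 (mouse 6) and 614 (mouse 7). The ranges overlapped only through the primary tumor of mouse 3, which lay below both metastases of mouse 4. The log2 ratio of metastasis to own primary tumor ran from −3.19 in the liver metastasis of mouse 1 to −1.09 in the subcutaneous metastasis of mouse 3, with a median of −2.39 (n = 9).

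In the fit with the mouse as a block, the metastases differed from the matched primary tumors in S100a14 by a log2 difference of −2.38 (SE 0.30, 95% interval −3.06 to −1.71), a 5.21-fold lower level. In 6 of 9 metastases S100a14 (27.3 to 87.4) lay near or below the array medians, and how far these values stand above background was not tested. S100a14 was the only one of the 10 member probe sets past an adjusted p of 0.05 in limma, beside 80 of all 22626 (0.354%), of which 77 were lower (0.34%). It was also the only member lower in 9 of 9 metastases, beside 814 of all probe sets (3.6%). Nothing is read from these counts, because this contrast chose the gene. The call was lost without mouse 1 (−2.18), mouse 2 (−2.20) or mouse 4 (−2.47), and also without the lymph node metastasis of mouse 4 (−2.34) or the body wall metastasis of mouse 1 (−2.36). It was lost too without the mouse as a block (−2.46) and with 1 mean ratio per mouse (−2.44). Over all members the median log2 difference was −0.03, with 5 probe sets higher and 5 lower, against −0.02 over all probe sets.

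**Figure D1:**
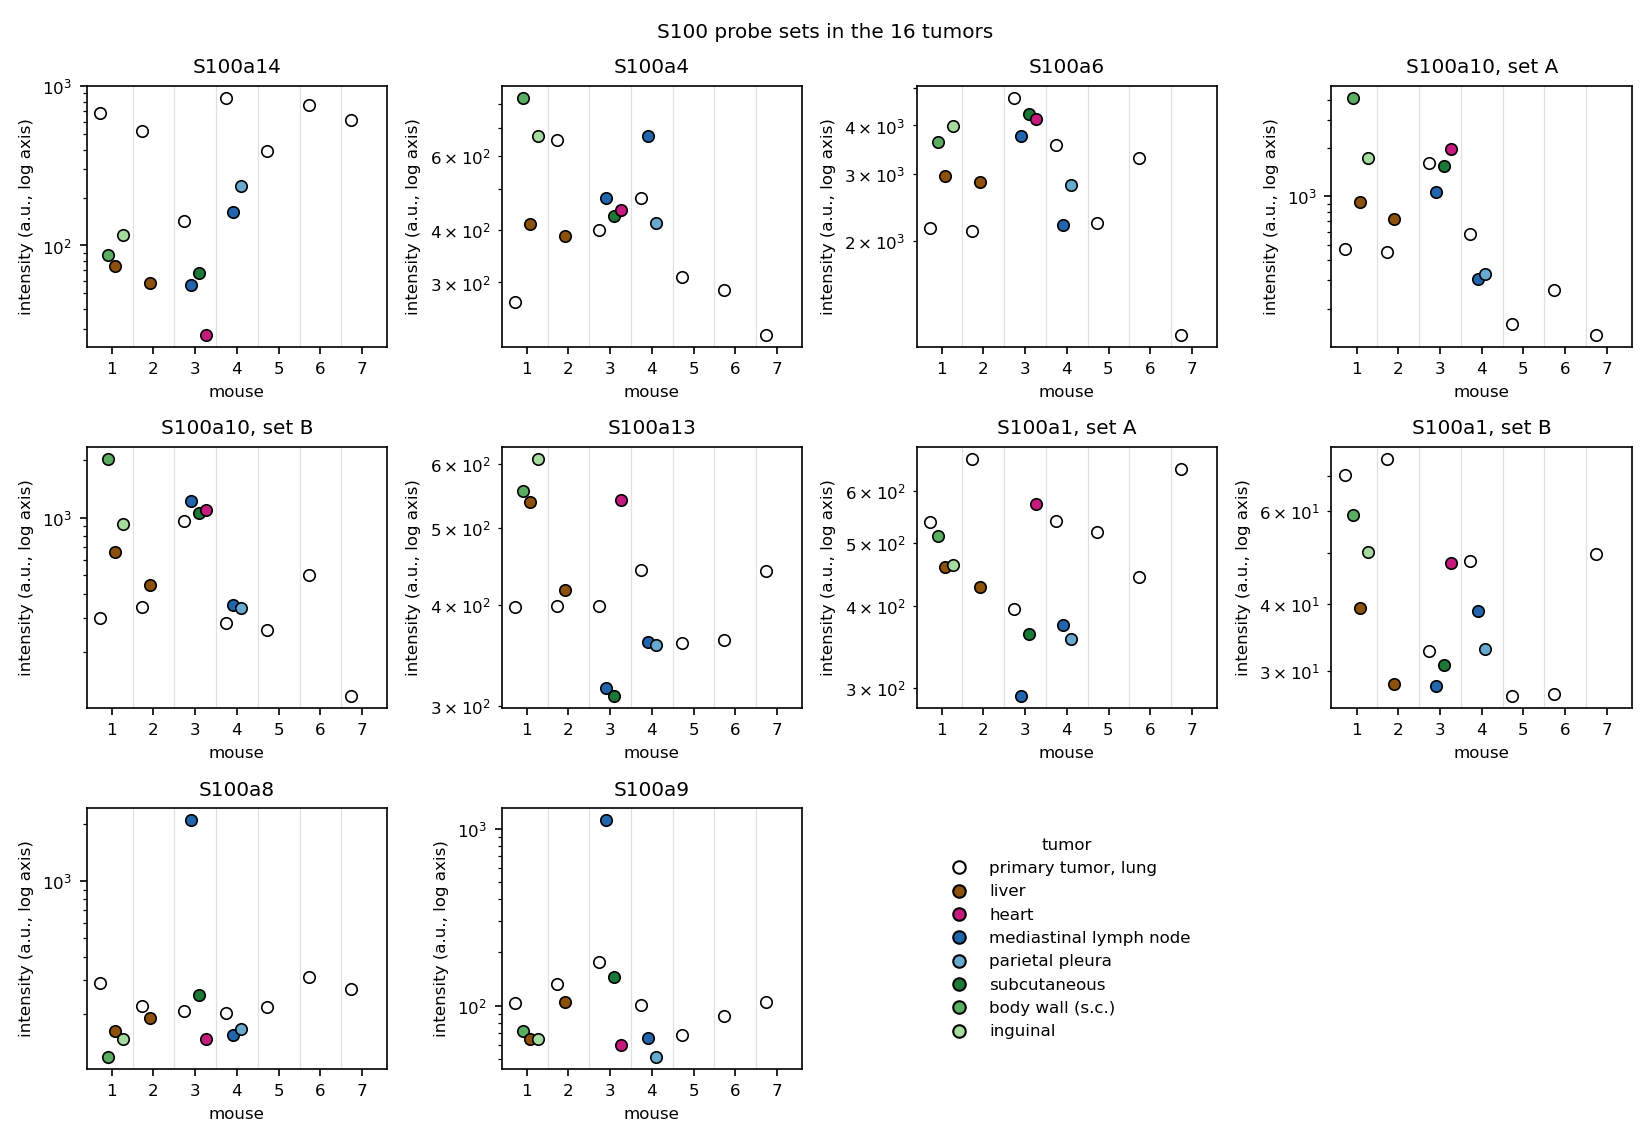
Intensity (arbitrary units, log axis with its own range in each panel) of the 10 S100 probe sets in the 16 tumors, by mouse. Open points are primary tumors and filled points are metastases, colored by site; S100a14 lies below the own primary tumor in all 9 metastases, and S100a8 and S100a9 stand out in the lymph node metastasis of mouse 3 (2091 and 1120).

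S100a4, which binds the heavy chain of non-muscle myosin and marks fibroblasts, showed no common direction among the mice. In mouse 1 the primary tumor had 269.6, and the body wall, liver and inguinal metastases had 826, 413 and 669. Mouse 2 went the other way, from 656 in the primary tumor to 386 in the liver metastasis. In mouse 3 the primary tumor had 400.5 and the metastases 476 (lymph node), 432 (subcutaneous) and 447 (heart). The primary tumor of mouse 4 had 478, its lymph node metastasis 669.9 and its pleural metastasis 415. Mice 5 to 7 had primary tumor values of 309, 287.5 and 225. The metastases were thus higher than their primary tumor in 7 of 9 cases, but the ranges overlapped, and the log2 difference was 0.27 (SE 0.28, 95% interval −0.35 to 0.90), which did not pass the threshold. The mean log2 ratio per mouse was 1.18, −0.76, 0.17 and 0.14 in mice 1 to 4, and without mouse 1 the difference was −0.08.

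S100a6, also called calcyclin, is the partner of Cacybp and rises in proliferating fibroblasts. Its primary tumors had 2170, 2125, 4718 and 3557 in mice 1 to 4 and 2230, 3295 and 1141 in mice 5 to 7. The metastases of mouse 1 had 3633 (body wall), 2953 (liver) and 3993 (inguinal), and the liver metastasis of mouse 2 had 2857, all above their primary tumors. In mouse 3 the lymph node, subcutaneous and heart metastases had 3754, 4287 and 4167, and mouse 4 had 2201 in its lymph node and 2800 in its pleural metastasis, all below their primary tumors. The ratios of S100a6 therefore divided the mice, with mice 1 and 2 higher and mice 3 and 4 lower in each metastasis. All ratios of a mouse share its 1 primary tumor, so they are not separate. The metastases themselves overlapped, with 2857 to 3993 in mice 1 and 2 and 2201 to 4287 in mice 3 and 4. The log2 difference was 0.08 (SE 0.19, 95% interval −0.34 to 0.51), which turned to −0.15 without mouse 1.

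S100a10, the light chain partner of annexin A2 that has lost the ability to bind calcium, is measured by a pair of probe sets, called A and B here. On set A it went in mouse 1 from 472 in the primary tumor to 4101 in the body wall, 923 in the liver and 1732 in the inguinal metastasis. Mouse 2 had 449 in the primary tumor and 726 in the liver metastasis. In mouse 3 the primary tumor already had 1618, beside 1056 in the lymph node, 1544 in the subcutaneous and 1968 in the heart metastasis. Mouse 4 had 582 in the primary tumor and 306 and 327 in its lymph node and pleural metastases. The primary tumors of mice 5 to 7 had 160.1, 261 and 136, the 3 lowest values of all 16 tumors. The log2 difference on this probe set was 0.43 (SE 0.48, 95% interval −0.635 to 1.499), and it was −0.18 without mouse 1.

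Set B of S100a10 carries a suffix of the array's design for probes that may also match other sequences. The metastases were higher on it than their primary tumors in 9 of 9 cases, beside 409 of all probe sets (1.81%), with log2 ratios from 0.14 in the subcutaneous metastasis of mouse 3 to 2.75 in the body wall metastasis of mouse 1. Its log2 difference was 0.73 (SE 0.33, 95% interval 0.00 to 1.45), which did not pass the adjusted threshold and was 0.29 without mouse 1. Both probe sets had their highest value in the body wall metastasis of mouse 1 (4101 and 2028) and their lowest in the primary tumor of mouse 7 (136 and 117). They differed in sign in 4 of 9 metastases. In the lymph node and subcutaneous metastases of mouse 3 the ratios were −0.62 and −0.07 on set A and 0.35 and 0.14 on set B. Both metastases of mouse 4 differed too, with −0.93 and −0.83 on set A and 0.32 and 0.27 on set B.

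S100a8 and S100a9, the subunits of calprotectin, were dominated by 1 tumor, the lymph node metastasis of mouse 3. S100a8 had 208 in the primary tumor of mouse 3 and 2091 in this lymph node metastasis, beside 251 in the subcutaneous and 148 in the heart metastasis. S100a9 had 176 in the primary tumor and 1120 in the lymph node metastasis, beside 144 and 60.2 in the other two metastases of the mouse. The log2 ratios were 3.33 for S100a8 and 2.67 for S100a9. The S100a8 probe set carries a suffix of the array's design for probes shared by several transcripts, though it is annotated to a single symbol. The mediastinal lymph node metastasis of mouse 4 was not raised, with 155 for S100a8 and 65.3 for S100a9 against 203 and 101 in its primary tumor.

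Away from that tumor, S100a8 was lower than in the primary tumor in 7 of the 8 other metastases and S100a9 in all 8. In mouse 1 S100a8 went from 289 in the primary tumor to 119 (body wall), 163 (liver) and 149 (inguinal), and in mouse 2 from 219 to 191. S100a9 went in mouse 1 from 104 to 71.8, 64.8 and 64.8, and in mouse 2 from 132 to 104.5. The pleural metastasis of mouse 4 had 166 for S100a8 and 51.2 for S100a9. The primary tumors of mice 5 to 7 had 218, 311 and 269 for S100a8 and 68.7, 87.5 and 105 for S100a9. With all tumors the log2 differences were −0.12 (SE 0.61) and −0.37 (SE 0.61), and without the lymph node metastasis of mouse 3 they were −0.45 and −0.70. Without the heart metastasis of the same mouse they were 0.04 and −0.15. Neither passed the adjusted threshold with all tumors or without either of these metastases.

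Other genes of neutrophils were set beside this pair. Of the 22 genes of a neutrophil list, 19 were measured, and 7 of these were highest of the 9 metastases in the lymph node metastasis of mouse 3, 12 being above its own primary tumor. How many of all probe sets were highest in this tumor or above its own primary tumor was not counted. Nothing is read from these counts. Ngp and Camp, proteins of neutrophil granules, had 303 (54.6 to 82.1 in the other metastases) and 32.5 (at most 1.73). The granule enzymes Mpo, Elane and Prtn3 had 313.5 (180 to 286), 24.8 (12.3 to 18.8) and 8.44 (at most 2.54). Mpo and Elane were higher still in a primary tumor, at 329 in mouse 5 and 27.1 in mouse 7. Csf3r and Cxcr2, surface receptors of mature neutrophils, were not highest there, with 26.7 (11.4 to 33.1) and 20.6 (22.7 to 35.9). Neither was Lcn2, with 364 (158 to 724), and Hdc had 9.88 (27.0 to 373), below all other metastases. The mean log2 level of the whole list was 5.93 in this tumor and ran from 5.18 to 5.52 in the other metastases and from 5.45 to 5.92 in the primary tumors, and 5 of its genes were dim (mean intensity under 24.3). Over all metastases 7 of the 19 genes were higher and 12 lower, the median log2 difference was −0.03 and 0 were called. The largest differences in size were those of Lcn2 (−2.44) and Cd177 (−1.99). The part of neutrophils in the S100a8 and S100a9 values was not tested.

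**Figure D2:**
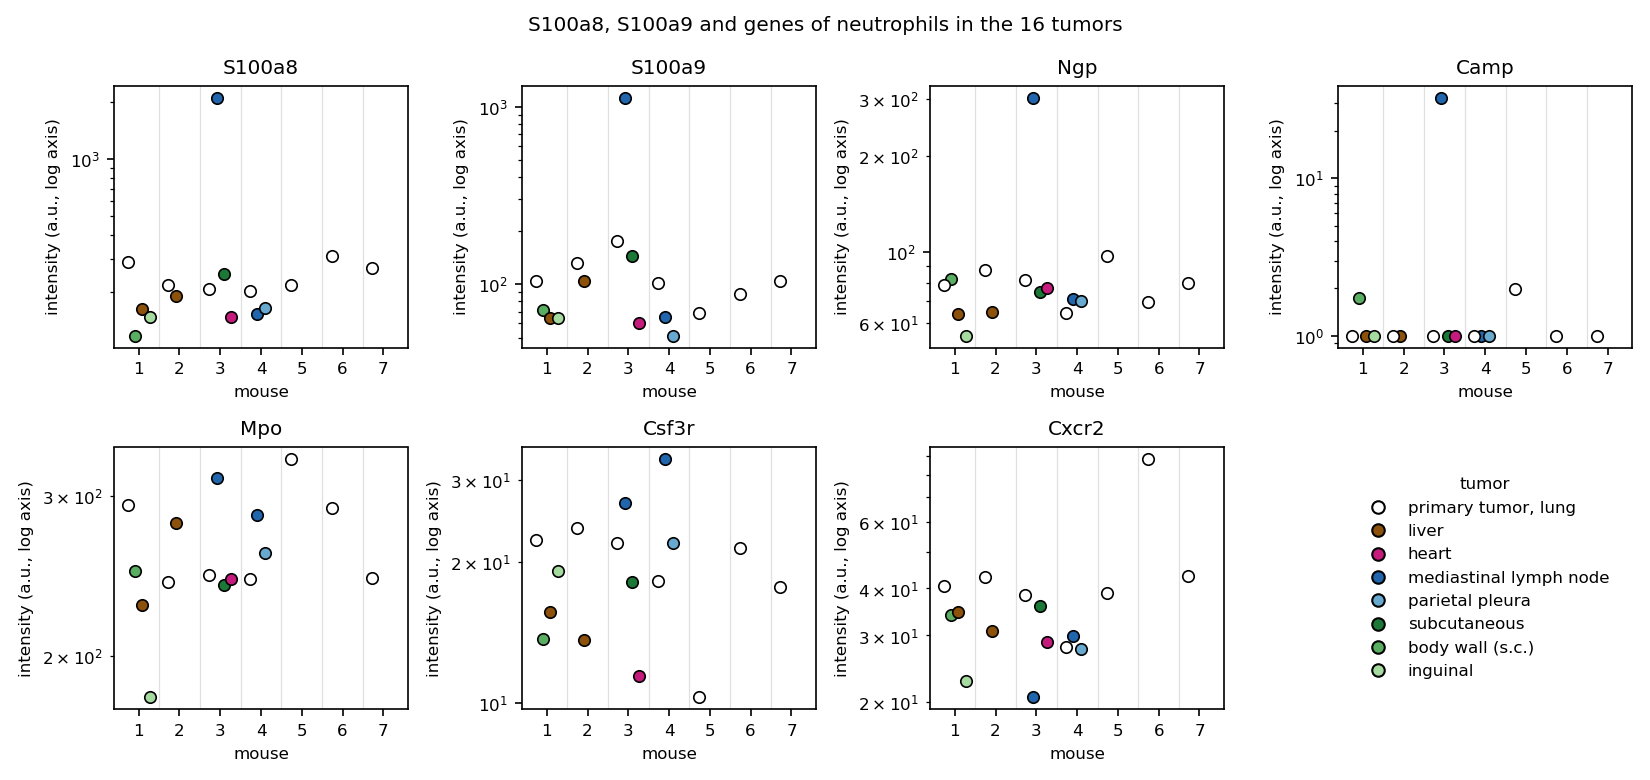
Intensity (arbitrary units, log axis with its own range in each panel) of S100a8, S100a9 and 5 neutrophil genes by mouse, with primary tumors open and metastases colored by site. The lymph node metastasis of mouse 3 stands above the other 15 tumors for S100a8, S100a9, Ngp (303) and Camp (32.5), but not for Mpo, Csf3r or Cxcr2.

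S100a1, which regulates calcium handling in heart muscle, was lower than the primary tumor in 8 of 9 metastases on both of its probe sets, again called A and B. On set A the primary tumors of mice 1 to 4 had 537, 671, 396 and 539.5, and those of mice 5 to 7 had 518, 444 and 647. The metastases had 512, 459 and 463 in mouse 1 (body wall, liver and inguinal), 428 in mouse 2, 292, 362 and 573 in mouse 3 (lymph node, subcutaneous and heart) and 375 and 357 in mouse 4 (lymph node and pleura). The heart metastasis was the exception, with a log2 ratio of 0.53 on set A and 0.55 on set B. On set B, whose values of 26.8 to 75.3 were near or below the median intensity of the arrays, the primary tumors of mice 1 to 4 had 70.3, 75.3, 32.7 and 48.2. The log2 differences were −0.31 (SE 0.18) and −0.50 (SE 0.23), and neither passed the adjusted threshold. Set A carries the same suffix for shared probes as the S100a8 probe set. Without mouse 2, which has 1 metastasis, the difference on set B was −0.29.

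The heart metastasis also had the highest mean level of a list of striated muscle genes. Of 23 striated muscle genes 12 were highest of the 9 metastases in this tumor and 18 were above its own primary tumor, among them Actc1, the cardiac actin, at 1052 (at most 50.7 in the other metastases), and Tnni3, a cardiac troponin, at 62.8 (at most 11.1). Myh6, the fast myosin of heart muscle, was not, at 6.55 (2.32 to 12.1). How many of all probe sets were highest in the heart metastasis or above its own primary tumor was not counted, so nothing is read from the counts. The mean log2 level of the list was 6.72 in the heart metastasis, 4.76 to 5.52 in the other metastases and 4.77 to 5.08 in the primary tumors, and over all metastases 17 genes were higher and 6 lower with a median of 0.29 and 0 called. The part of heart muscle in the S100a1 value was not tested.

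S100a13, which takes part in the export of Fgf1 and Il1a from cells, kept to a narrow range. The primary tumors had 398, 399, 399 and 443 in mice 1 to 4 and 359, 362.5 and 442 in mice 5 to 7. The metastases of mouse 1 had 555 (body wall), 538.5 (liver) and 609 (inguinal) and the liver metastasis of mouse 2 had 418. In mouse 3 the lymph node and subcutaneous metastases had 316 and 308, while the heart metastasis had 541.5. Mouse 4 had 360.3 in its lymph node and 357 in its pleural metastasis. The metastases thus lay on both sides of the primary tumors, with a log2 difference of 0.05 (SE 0.18, 95% interval −0.34 to 0.45).

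**Figure D3:**
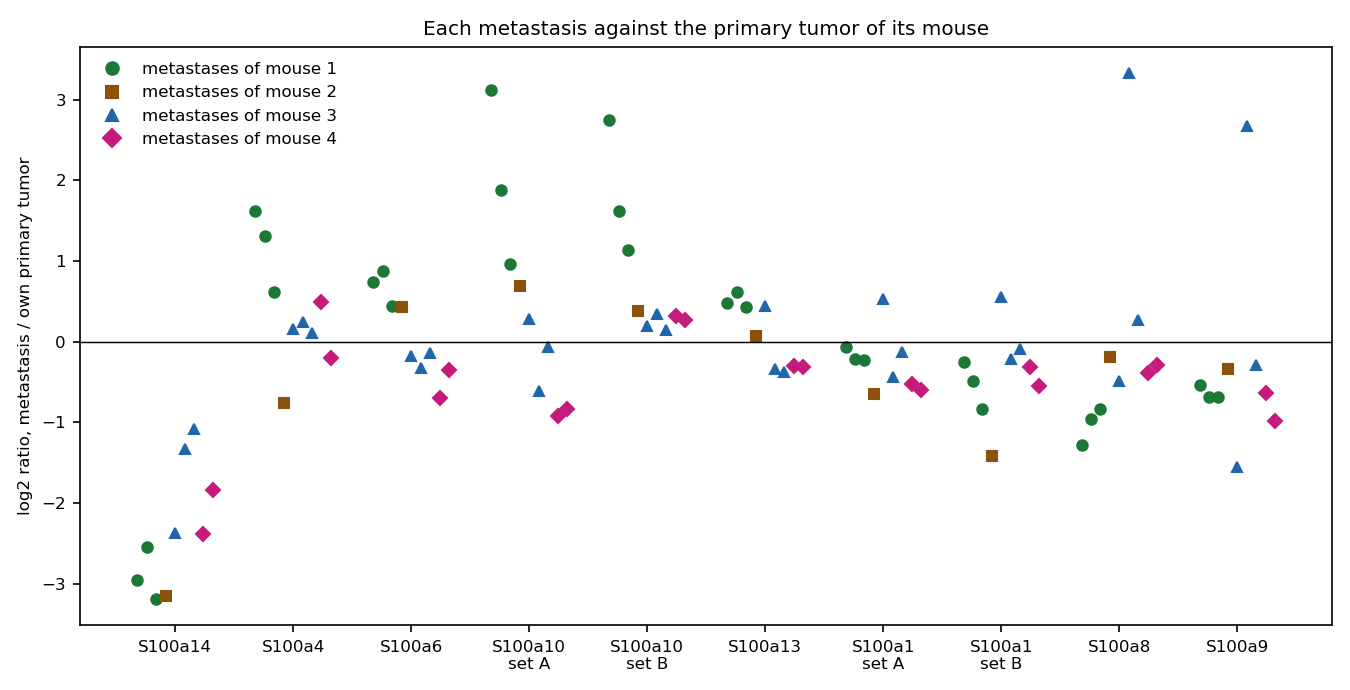
Log2 ratio of each of the 9 metastases to the primary tumor of its mouse for the 10 S100 probe sets, each point 1 metastasis and each symbol 1 mouse, with the line at 0 for no difference. All 9 points lie below 0 for S100a14 (−3.19 to −1.09) and all above 0 for S100a10 on set B, while the other probe sets have points on both sides.

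The epithelial, mesenchymal and neutrophil members were then contrasted within each metastasis, as the log2 ratio of one member minus that of S100a14. These contrasts share the S100a14 values and are given without a test. The fall of S100a14 (log2 ratios −3.19 to −1.09) was known when the genes were chosen. Nothing is therefore read from the signs of the contrasts or from the ranking by size. S100a8 and S100a9 were themselves lower than the primary tumor in 7 and 8 of 9 metastases. For S100a4 the contrast was above 0 in 9 of 9 metastases, from 1.19 to 4.57 with a median of 2.53, and for S100a6 it was above 0 in 9 of 9, from 0.95 to 3.69 with a median of 2.20. S100a8 gave 1.36 to 4.66 with a median of 1.89, and S100a9 gave 0.80 to 4.00 with a median of 1.85, again above 0 in each metastasis. S100a4 minus S100a6 was above 0 in 8 of 9 metastases, with a median of 0.34 and a range from −1.19 in the liver metastasis of mouse 2 to 1.18. Of these 5 members S100a14 had the ratio of largest size in 8 of 9 metastases, and S100a8 had it in the lymph node metastasis of mouse 3.

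Lists of epithelial and mesenchymal genes were set beside the members in each tumor, and they were chosen with earlier results of these data known. Their levels cannot tell apart a change in the makeup of a tumor from a change of RNA per cell. All 24 epithelial genes had a negative log2 difference, with a median of −0.98, and 5 were called lower, namely Cldn3, Spint2, Prss8, St14 and Lamb3. Epcam, an adhesion molecule of epithelia, had a difference of −2.38 (SE 0.56) and Cdh1, the epithelial cadherin, −0.72 (SE 0.41), and neither was called. The mean log2 level of the list was 8.53 to 9.11 in the primary tumors and 7.16 to 8.26 in the metastases, with no overlap. Of 23 mesenchymal genes 19 were higher and 4 lower, with a median of 0.47 and 0 called, and Vim had 0.98 (SE 0.31). Their mean level was 6.90 to 8.41 in the primary tumors, highest in mouse 3, and 7.43 to 9.32 in the metastases.

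S100a14 and the epithelial list had Pearson r = 0.865 over the 16 tumors and 0.656 over the 9 metastases. Both were lower in the metastases and were chosen with earlier results of these data known. The values over all 16 tumors therefore include that known difference between metastases and primary tumors. With a list of 9 measured alveolar type 2 genes S100a14 had r = 0.883, and 0.849 over the metastases, which is above the value for the epithelial list. With the mesenchymal list it had r = −0.723, and −0.521 over the metastases. The alveolar type 2 genes, which mark the surfactant-producing cells of the lung, all had a negative difference, with a median of −2.35 and 0 called, and their mean level ran from 10.42 to 12.09 in the primary tumors and from 6.68 to 11.42 in the metastases. The primary tumor of mouse 3 had a mean epithelial level of 8.89, within the range of the other primary tumors, although its S100a14 was the lowest of the 7, and its alveolar type 2 level of 10.42 was the lowest too. S100a6 had r = 0.65 with the mesenchymal list and S100a4 only 0.215, which were 0.424 and −0.415 over the metastases. With the alveolar type 2 list S100a6 had r = −0.654, and −0.832 over the metastases. S100a8 had r = 0.715 with the neutrophil list and 0.861 without the lymph node metastasis of mouse 3, and S100a9 had 0.578 and 0.457. Without that metastasis S100a8 also had r = 0.666 with the epithelial list and 0.645 with S100a14, against 0.121 and −0.001 with all 16 tumors. All these values describe the same 16 arrays, which share mice, and carry no test. The part of tumor cell content in the S100a14 values was not tested.

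**Figure D4:**
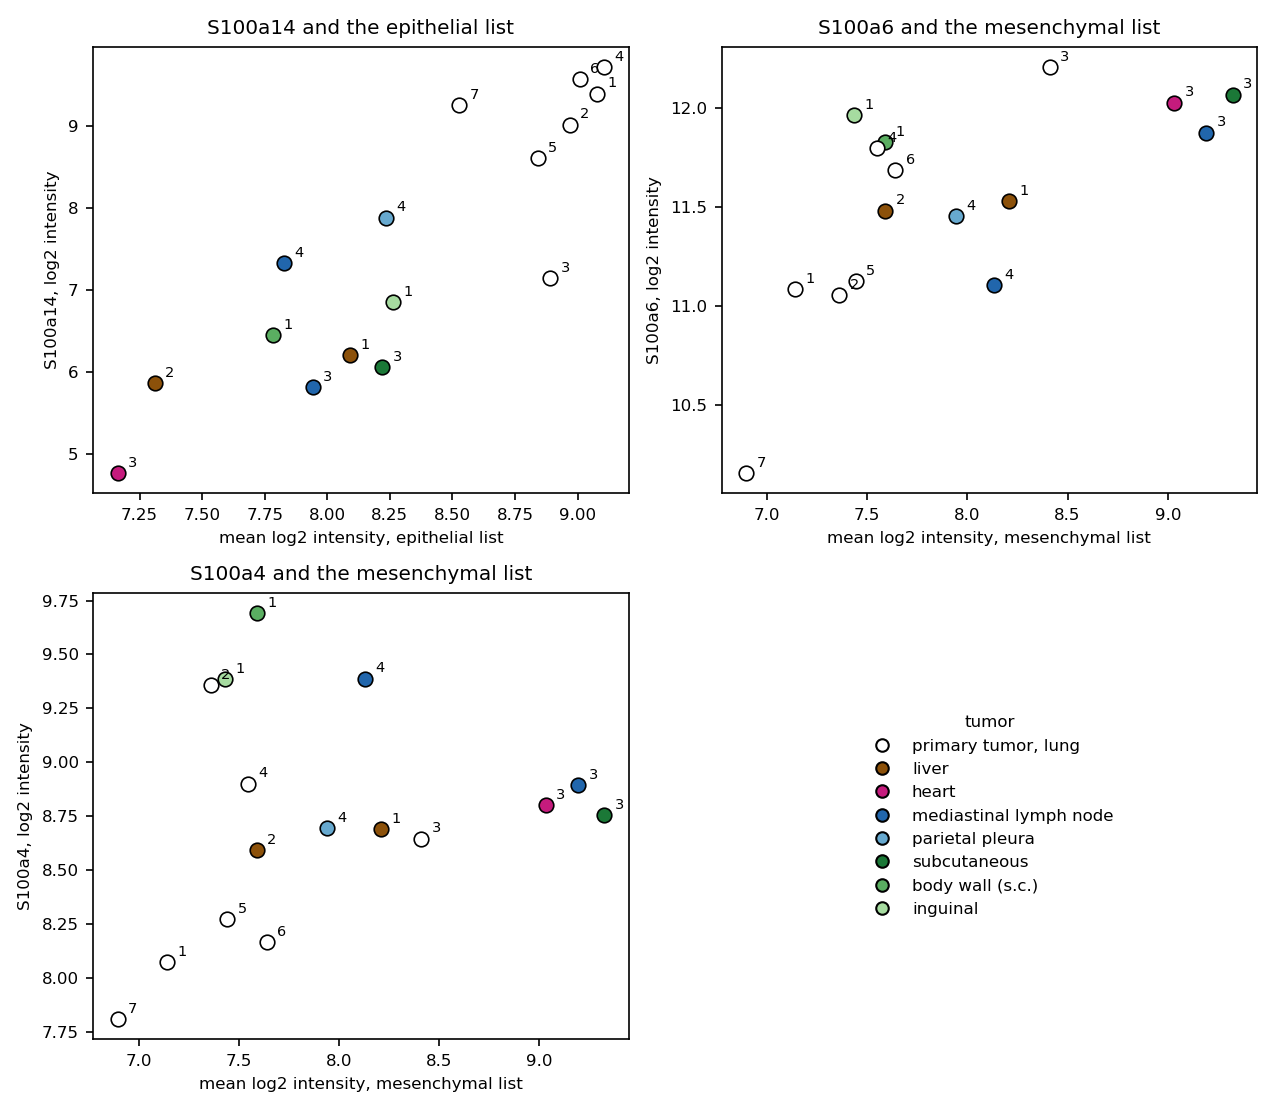
Log2 intensity of S100a14 against the mean log2 intensity of 24 epithelial genes (top left), and of S100a6 (top right) and S100a4 (bottom left) against that of 23 mesenchymal genes. Each point is 1 of 16 tumors, numbered by mouse and colored by site, and Pearson r is 0.865, 0.65 and 0.215.

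Hepatocyte and macrophage genes were measured as markers of other cells in the metastases. Of 11 hepatocyte genes measured, all 11 had a positive difference, with a median of 0.38 and 0 called, and their mean level ran from 5.05 to 9.12 in the metastases against 5.42 to 6.48 in the primary tumors. Alb was 3234 and 1285 in the liver metastases of mice 1 and 2, but also 2761 in the inguinal metastasis of mouse 1. In the liver metastases none of the member probe sets was the highest of the 9 metastases. Of 16 macrophage genes 7 were higher and 9 lower, with a median of −0.14, and Retnla was called lower.

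Partners and receptors of the S100 proteins were split evenly in direction. Of 18 measured genes, 9 had a positive and 9 a negative difference, with a median of 0.01, and 0 were called. Ager, the receptor that is abundant in alveolar type 1 cells, had the largest difference in size, −1.71 (SE 0.56), and Tlr4, the receptor of calprotectin, had −0.35 (SE 0.18). Anxa1, a partner of S100a11, had −0.38 (SE 0.14), and Anxa2, the partner of S100a10, had −0.09 (SE 0.22). Myh9, the myosin bound by S100a4, had −0.11 (SE 0.14), and Cacybp, the partner of S100a6, had 0.07 (SE 0.12).

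The members were also correlated with each other over the 16 tumors. S100a8 and S100a9 had r = 0.914, which was 0.579 without the lymph node metastasis of mouse 3 and −0.316 over the 7 primary tumors. S100a6 followed S100a10 (r = 0.786 and 0.839 on its probe sets) more closely than S100a4 (r = 0.427, and 0.004 over the metastases). S100a14 ran opposite to S100a10 (r = −0.709 and −0.742) and S100a6 (r = −0.553). S100a1 and S100a13, the head-to-head neighbours, had r = 0.523 and 0.51 over the 16 tumors and 0.824 and 0.878 over the metastases. The probe sets of 1 gene had r = 0.913 for S100a10 and 0.698 for S100a1.

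**Figure D5:**
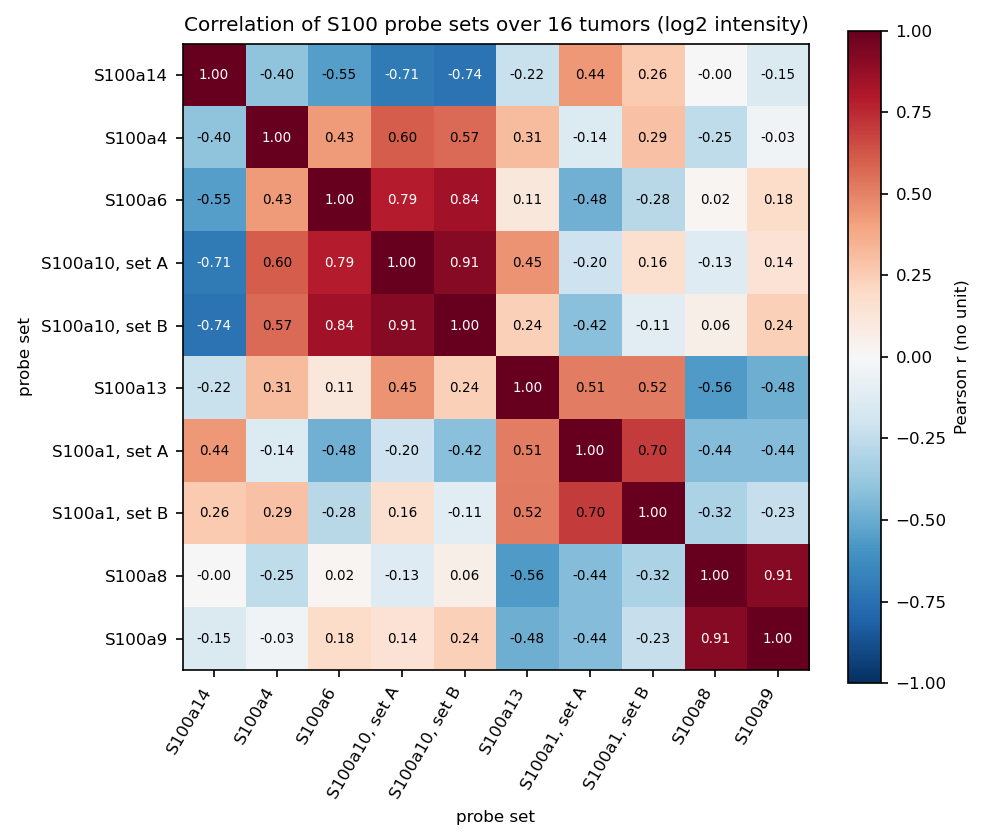
Pearson correlation of log2 intensity between the 10 S100 probe sets over 16 tumors, red for positive and blue for negative values (no unit). S100a8 and S100a9 pair with r = 0.91, S100a6 joins the S100a10 probe sets (0.79 and 0.84), and S100a14 is opposite to S100a10.

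Among 15698 probe sets or more with a single symbol and a mean above the 25th percentile, the genes most like S100a14 over the 16 tumors were Slc15a1, a peptide transporter (r = 0.955), Rab15 (0.944) and Eps8l1 (0.938). S100a6 was most like Psmd14, a proteasome subunit (0.955), Itga6, an integrin chain of epithelial adhesion (0.921), and Fam107b (0.904). The nearest to S100a4 were Psmc1, also of the proteasome (0.871), Incenp (0.859) and Atp5j2 (0.851). S100a8 had S100a9 first (0.914), then Penk (0.894) and Ngp (0.885), and S100a9 had S100a8, Ngp (0.865) and Igkv9-120 (0.862). For S100a1 they were Oxct1, an enzyme of ketone body use (0.881), Yipf2 (0.823) and Neat1 (0.822). Over the 9 metastases alone these values ran from 0.689 (Incenp with S100a4) to 0.976 (S100a8 with S100a9). S100a8, S100a9 and Ngp were each highest in the lymph node metastasis of mouse 3. Without that tumor S100a8 and S100a9 had r = 0.579, and the ranking was not repeated without it.

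The primary tumors of mice 5 to 7, which had no profiled metastasis, were compared with those of mice 1 to 4. This comparison is not independent of the choice of genes, since the primary tumors of mice 1 to 4 were the reference in that choice. None of the 10 member probe sets passed an adjusted p of 0.05 in limma, beside 231 of all probe sets (1.02%). At an unadjusted p of 0.05, 1 did, beside 4668 of all probe sets (20.6%), and this was S100a10 on set A, with a log2 difference of −1.90 (SE 0.49, 95% interval −3.08 to −0.73, limma adjusted p = 0.103). On this probe set the 3 tumors of mice 5 to 7 had 136 to 261 and the 4 of mice 1 to 4 had 449 to 1618. How many of all probe sets separate these groups in the same way was not counted. On set B the groups overlapped and the difference was −0.72 (SE 0.61, limma adjusted p = 0.543). S100a14 differed by 0.33 (SE 0.63, 95% interval −1.17 to 1.82, limma adjusted p = 0.806), so a difference of more than 2-fold in either direction lies within the interval. S100a4 differed by −0.66 (SE 0.31, limma adjusted p = 0.287) and S100a6 by −0.55 (SE 0.44, limma adjusted p = 0.519). S100a8 and S100a9 had 0.21 and −0.55, with limma adjusted p = 0.571 and 0.276.

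Thoracic metastases (both lymph nodes, pleura and heart, n = 4) were compared with distant metastases (body wall, inguinal, subcutaneous and both livers, n = 5), and only mouse 3 had both kinds. None of the 10 member probe sets passed an adjusted p of 0.05 in limma, where 0 of all probe sets did (0%), and none passed an unadjusted p of 0.05, beside 1225 of all (5.41%). S100a10 on set A had the largest log2 difference, −1.01 (SE 0.69, limma adjusted p = 0.854). S100a8 differed by 0.81 (SE 0.81, 95% interval −1.02 to 2.64), with the lymph node metastasis of mouse 3 among the thoracic tumors, and S100a14 differed by 0.12 (SE 0.58, 95% interval −1.19 to 1.44). Limma adjusted p-values of all members were 0.854 or higher.

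With all 7 primary tumors as the reference and the mouse as a random block, S100a14 had a log2 difference of −2.52 in the metastases (SE 0.35, 95% interval −3.27 to −1.78) and was again the only member past the adjusted threshold, beside 280 of all probe sets (1.24%). This fit shares the metastases and 4 primary tumors with the matched one. S100a10 had 1.17 (SE 0.52) and 1.06 (SE 0.38) on its probe sets, S100a4 had 0.47 (SE 0.22) and S100a6 had 0.31 (SE 0.22), and none of these passed.

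Of the S100 genes that were not members, 5 were measured on 6 probe sets with a single symbol (S100a3, S100a5, S100a16, S100b and S100g), and none passed the adjusted threshold. S100a16 had a log2 difference of −0.64 (SE 0.21). S100g stood apart in mouse 3, with 10.4 in the primary tumor of mouse 3 and 1 to 1.69 in its metastases, against 94.3 to 677 in the other 12 tumors.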

How the data were processed

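The authors hybridized RNA of each tumor to its own Affymetrix Mouse 430A 2.0 array. In dChip they normalized to an invariant set and modelled the difference between matched and mismatched probes, so the deposited intensity values are linear. They cannot show absolute RNA amounts, and their precision is limited by the number of arrays. Here 64 control probe sets were left out, values under 1 (3.71% at or under it) were raised to 1 and log2 was taken. Metastases and matched primary tumors were compared in limma 3.58.1 under R 4.3.3, in a fit that blocked on the mouse and used Benjamini-Hochberg adjustment over 22626 probe sets. Mice come from the labels. After the mean of its group was subtracted for each probe set, a metastasis correlated with its own primary tumor by 0 to 0.4. It correlated best with its own in 6 of 9 cases. No 2 arrays were identical (correlations of the log2 values themselves 0.9 to 0.969 over 120 pairs). The comparisons of all 16 tumors and of 9 metastases took the mouse as a random block (consensus correlations 0.238 and 0.154). Genes of a list with several probe sets were represented by the brightest. Members and lists were chosen with earlier results of these data known. All member probe sets, the 3 genes most like 6 members, and fixed partners and markers are named. Genes called in a list are named too. A few other genes of the lists were chosen for naming after their values were seen.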

Additional observations from a re-analysis of the deposited data

Results flagged for a closer look

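Each member probe set was examined for a tumor far from the rest of its group, in 20 groups (7 primary tumors or 9 metastases for each of 10 probe sets). Such a tumor was found in 3 groups, where chance gives about 1 in 20 if groups and tumors are independent. These groups share tumors and mice, so nothing is read from the count. S100a8 in the lymph node metastasis of mouse 3 had 2091, with the next metastasis at 251, so that the gap took a share of 0.739 of the whole log2 range. S100a9 in the same tumor had 1120, with the next at 144 and a share of 0.664. S100a14 in the primary tumor of mouse 3 had 141.8, with the next primary tumor at 391.5 and a share of 0.569, just above the critical value for 7 tumors.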

How the results depend on the processing

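The number of member probe sets past the threshold against matched primary tumors was 1, and it was 0 without the mouse as a block (no pairing) and 0 with 1 mean ratio per mouse; over the tumors or mice left out in turn it was 0 to 1. S100a14 was negative in each of its 22 alternatives (−2.69 to −2.18) and kept its call in 14. The log2 difference turned its sign only when tumors were left out, and only in values that were not called: without mouse 1 for S100a10 on set A (−0.18), S100a13 (−0.12), S100a8 (0.24), S100a6 (−0.15) and S100a4 (−0.083), and without the heart metastasis for S100a13 (−0.01) and S100a8 (0.04). The ranges over these omissions were −0.18 to 0.87 for set A of S100a10, −0.12 to 0.17 for S100a13, −0.57 to 0.24 for S100a8, −0.15 to 0.28 for S100a6, −0.08 to 0.51 for S100a4, 0.29 to 0.92 for set B of S100a10, −0.70 to −0.15 for S100a9, −0.43 to −0.23 for set A of S100a1 and −0.72 to −0.29 for its set B. The counts of the other 3 comparisons (1, 0 and 0) did not change in the alternatives run. Over all probe sets the fit called 80, and it called 43 without the block, 0 with 1 mean ratio per mouse, 236 with dim probe sets left out, 224 with a variance trend, 884 by the methods' paired test and 2, 19, 23 and 10 without mouse 1, 2, 3 or 4, and 9 to 72 without 1 metastasis. The causes were not tested. With 4 mice, differences the size of the SEs given could not be seen, and how far values near the array medians stand above background (set B of S100a1, most tumors for S100a9, and most metastases for S100a14) was not tested.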
